A study of Mus musculus with 16 samples.

Results

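Liver parenchymal cells make most of the proteins of the complement and clotting systems that circulate in blood. The 39 genes described here encode 16 such complement proteins and 23 proteins of coagulation and fibrinolysis and were listed by name; the list was drawn up with earlier results of these data known. All 39 were found among the 53801 genes of the count table, and all 39 were among the 14351 genes that had enough reads to be tested. RNA was sequenced from 16 mouse livers in 4 groups of 4. Control mice and mice with a liver-specific knockout of Degs1, the gene for dihydroceramide desaturase, were kept on either normal chow or a high-fat diet. The libraries were made from total RNA with a stranded kit after removal of ribosomal RNA. Strain, sex, age, length of feeding, how the knockout was made and the alleles of the control mice are not known from the labels. Each liver carries its own animal number, and the numbers of the 4 groups do not interleave (chow knockouts 179 to 187, chow controls 194 to 220, high-fat controls 61 to 76, high-fat knockouts 82 to 92), so diet and genotype cannot be told apart from whatever else differed between these series of animals.

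Complement is a cascade of plasma proteins that tags microbes and damaged cells and can open pores in their membranes. Its lectin arm starts with mannose-binding lectins and their proteases, all arms meet at C3, and the terminal components from C5 to C9 assemble into the membrane attack complex. Coagulation ends with thrombin cutting fibrinogen, a protein of 3 paired chains encoded by Fga, Fgb and Fgg, into fibrin, which plasmin later dissolves. Several clotting proteases need vitamin K for a modification that lets them bind membranes, and serpins such as antithrombin keep the cascade in check. Fibrinogen and many complement genes are acute-phase genes, which hepatocytes adjust in response to cytokines.

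Total counts ran from 11938596 to 23250885 per liver. Degs1 checked the labels: it stood at 85.5, 80.4, 87.9 and 84.9 CPM (counts scaled to TMM-adjusted library size) in the chow controls and 39.3, 39.3, 37.4 and 35.9 in the chow knockouts, and at 60.2, 62.2, 101 and 70.3 in the high-fat controls and 41.6, 28.1, 26.1 and 29.2 in the high-fat knockouts. No knockout liver reached the level of a control on its diet (edgeR log2 fold change -1.16, SE 0.17, adjusted p = 0.0123 on chow, and edgeR log2 fold change -1.23, SE 0.17, adjusted p = 0.00376 under high-fat feeding). The 7 hepatocyte markers (Alb, Apoa1, Apob, Ttr, Ahsg, Hpx and Serpina1a) were abundant in every liver, and their summed CPM lay between 122655 and 139923 (chow controls), 135483 and 160266 (chow knockouts), 94894 and 127602 (high-fat controls), and 78501 and 97035 (high-fat knockouts). Malat1, a nuclear RNA, had medians of 528, 792, 1869 and 3484 CPM in the same order. High-fat control 3 stood apart from its group with 180 CPM of Malat1, while high-fat control 1 had 4028. The share of counts on genes annotated as sense intronic or to be experimentally checked (TEC), a rough index of unspliced RNA, reached at most 0.0411% among chow controls and at least 0.162% among high-fat knockouts.

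Among the 39 genes, level differed far more between genes than between livers. Per length of exon, as CPM per kilobase (RPKM, mean ± SD over the 4 chow controls), the fibrinogen chains Fgg at 2218 ± 159 and Fga at 2186 ± 100.2 led. C3, the hub of complement, followed at 1794 ± 235 RPKM, then Vtn, which encodes the adhesive plasma protein vitronectin, at 1446 ± 257 and Fgb, the remaining fibrinogen chain, at 1444 ± 55.1 RPKM. Next came Kng1 (kininogen) at 841 ± 139, Plg (plasminogen) at 592 ± 59.7 and Serpinf2 (alpha 2-antiplasmin) at 430.4 ± 43.5 RPKM. The lowest were C2, the serine protease of the classical and lectin C3 convertase, at 15.6 ± 4.55, Masp1 at 23.7 ± 3.43, Pros1 (protein S) at 24.4 ± 3.07 and Cfb (factor B) at 31.5 ± 10.9 RPKM. Neighbours in this order such as Fgg and Fga, or Vtn and Fgb, lay within each other's SD. C2 and Cfb lie inside a longer read-through gene model, so their counts and low rank are uncertain. The length joins all annotated exons of a gene, whichever of its transcripts the liver makes.

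Together the 39 genes took between 4.78 and 5.31% of all counts (chow controls), 4.23 and 4.88% (chow knockouts), 3.73 and 4.56% (high-fat controls), and 3.67 and 4.36% (high-fat knockouts). Of the 4 group means, that of the chow controls was the highest for 30 of 39 genes, and that of the high-fat knockouts the lowest for 34. The shares of all genes with these orders were not counted. Across the 16 livers the highest CPM exceeded the lowest 7.15-fold for C8b, 5.62-fold for C6, 4.05-fold for C8a and 3.71-fold for C8g, all terminal complement genes, and only 1.47-fold for Masp2, a protease of the lectin arm. In bulk tissue, fewer cells of a type and less RNA per cell cannot be told apart.

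**Figure D1:**
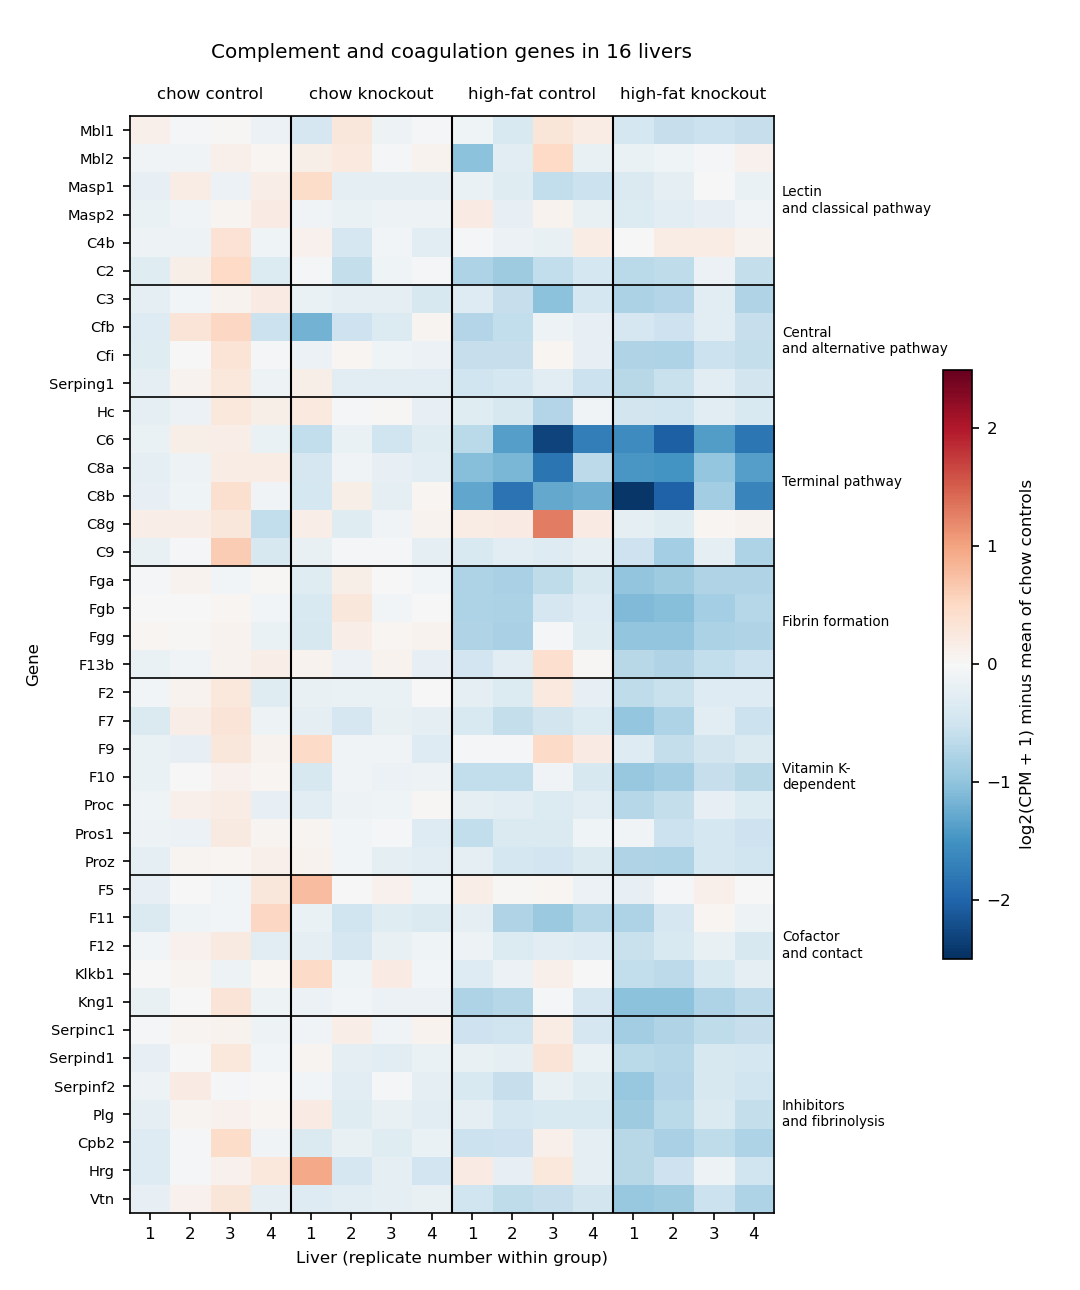
Level of each of the 39 genes in each of the 16 livers, as log2 of CPM + 1 minus the mean of the 4 chow controls, with genes ordered by role and livers by group. The high-fat columns are mostly below the chow controls, most of all for C6, C8a, C8b and the fibrinogen genes, while C8g in high-fat control 3 is above them.

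The diet comparison asked how these genes differed between livers of high-fat-fed and chow-fed mice of the same genotype. In the controls, 4 of the 39 genes fell on the high-fat diet and 0 rose (edgeR quasi-likelihood test, adjusted p under 0.05 by Benjamini-Hochberg over all 14351 genes), where 0.885% of all genes tested fell and 0.941% rose. They were C6, C8a and C8b of the terminal complement pathway and Fga of fibrinogen. In the knockouts, 16 of 39 genes fell and 0 rose, where 5.35% of all genes fell and 5.21% rose. DESeq2 called 9 lower in the controls and 18 in the knockouts, where it called 1.97% and 7.61% of all genes lower. These 16 were the same 4, all the other genes of fibrin formation (Fgb, Fgg and F13b), Cfi, F10, Proz, Klkb1, Kng1, Serpinc1, Serpinf2, Plg and Vtn. The 4 genes called in both make up 100% of those called in the controls and 25% of those called in the knockouts, and 23 genes were called in neither. The share of all genes called in both was not counted. The median log2 fold change of the 39 was -0.36 in the controls and -0.46 in the knockouts, beside 0.0098 and 0.022 over all genes.

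The livers of the diets did not overlap, with every high-fat liver below every chow liver, for 13 of 39 genes in the controls (33.3%, where 4.01% of all genes did so) and for 22 of 39 in the knockouts (56.4%, where 12.4% did so). For 9 genes this held in both genotypes, but how many of all genes did so in both was not counted. By sign alone, 34 of 39 genes were below 0 in the controls (87.2%, where 48.7% of all genes were) and 37 of 39 in the knockouts (94.9%, where 48.1% were). The hepatocyte markers moved the same way (6 of 7 below 0 in each genotype, with 0 of 7 called in the controls and 3 of 7 called lower in the knockouts), and 4 of 5 markers of recruited macrophages were called higher in the knockouts, where their summed level was 17.5 to 70.8 CPM on the high-fat diet against 11.1 to 21.97 CPM on chow. The other marker of that list, Cd9, had a log2 fold change of -0.84 in the knockouts (SE 0.35, adjusted p = 0.124) and -0.90 in the controls (SE 0.35, adjusted p = 0.197) by edgeR. The part of these levels, and of the Malat1 and TEC shifts, in the lower values of the 39 genes was not tested. A further fit took the TEC and intronic share as a covariate. This share was 0.0463 to 0.0878% in the chow knockouts and 0.162 to 0.191% in the high-fat knockouts, without overlap. The fit therefore cannot separate the share from diet in the knockouts. In this covariate fit 8 members were called in the controls (7 lower and C8g higher), where 4.69% of all genes were called lower. In the knockouts 6 were called (C6, C8a, C8b, Fga, Fgb and Proz), all lower, where 3.52% of all genes were called lower. The calls of Fgg, Serpinc1, Kng1, Klkb1, F10, F13b, Cfi, Vtn, Plg and Serpinf2 in the knockouts were lost in this covariate fit.

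How many genes passed depended on single livers. In the controls, 11 passed without high-fat control 3, where 2.27% of all genes were called lower. When only the chow and high-fat controls entered the fit, 1 passed, C8b, where 0.272% of all genes were called lower. In the knockouts, 9 passed without chow knockout 2, where 2.25% of all genes were called lower. With high-fat knockout 1 or 2 omitted, 8 and 7 passed, where 2.63% and 1.6% of all genes were called lower. Without high-fat control 3, a liver of neither knockout group, 21 passed, where 10.6% were called lower. With upper-quartile scaling 10 passed, where 3.11% were called lower. Of the 16 calls in the knockouts, that of Kng1 was lost in 1 of the 16 omissions of a single liver, that of Klkb1 in 2, that of F13b in 5 and those of Vtn, Cfi and Serpinf2 in 6 each. C8b, C8a, C6, Fga and Fgb passed in the knockouts under each of the 24 other settings and omissions tried.

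**Figure D2:**
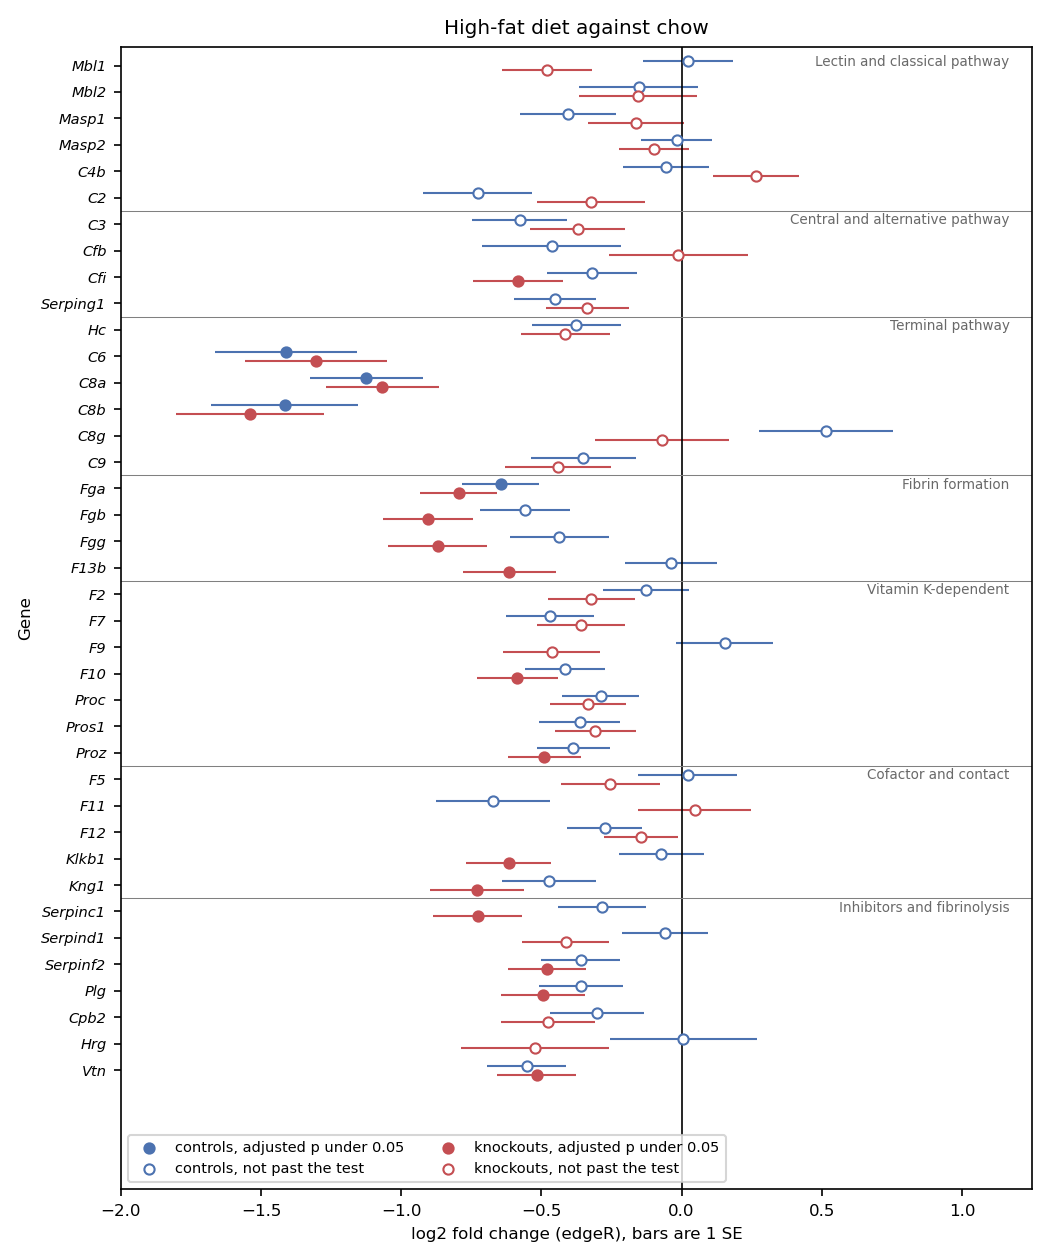
Log2 fold change of the high-fat diet against chow for each of the 39 genes, in controls and in knockouts, with bars of 1 SE and filled symbols where edgeR called the gene. Most genes lie left of 0 in both genotypes, and the 4 called in the controls are C6, C8a, C8b and Fga.

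The largest diet differences among the 39 genes were in the terminal pathway. The 6 of its genes on the list are Hc (mouse C5), C6, the 3 chains of C8 (C8a, C8b and C8g) and C9. C8a and C8b lie side by side on chromosome 4, 11130 bases apart on opposite strands and converging, and C6 lies on chromosome 15. The sequence before the start of these genes and of the fibrinogen genes is shown because these 6 members had the largest falls with diet in the knockouts, so that motifs of liver transcription factors can be read in them. Each line runs 5′ to 3′ on the gene's strand, from RefSeq on GRCm38.p6, and ends at the base before the RefSeq start, except that those of C6 and Fga stop earlier, before the start in GENCODE. Capitals mark matches on either strand to an HNF1 motif (GTTAAT), the core of an IL-6 response element (CTGGGAA) or a C/EBP motif (TTGCAA).
C6: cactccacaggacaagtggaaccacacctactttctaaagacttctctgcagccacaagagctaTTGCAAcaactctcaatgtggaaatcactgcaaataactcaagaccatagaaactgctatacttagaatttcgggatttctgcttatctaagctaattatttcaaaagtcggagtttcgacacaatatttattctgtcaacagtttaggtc
C8a: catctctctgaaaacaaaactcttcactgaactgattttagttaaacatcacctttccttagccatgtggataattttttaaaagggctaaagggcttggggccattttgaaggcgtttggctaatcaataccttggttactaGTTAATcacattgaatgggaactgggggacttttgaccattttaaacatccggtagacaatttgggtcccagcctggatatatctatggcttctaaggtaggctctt
C8b: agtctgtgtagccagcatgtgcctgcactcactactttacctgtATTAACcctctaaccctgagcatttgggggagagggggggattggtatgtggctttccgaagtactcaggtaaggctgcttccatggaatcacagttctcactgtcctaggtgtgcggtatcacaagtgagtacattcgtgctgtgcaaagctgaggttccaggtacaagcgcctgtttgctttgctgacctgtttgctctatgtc
Fga: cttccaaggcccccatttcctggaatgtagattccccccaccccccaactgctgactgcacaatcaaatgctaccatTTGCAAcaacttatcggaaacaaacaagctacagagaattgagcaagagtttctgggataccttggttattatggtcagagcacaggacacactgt
Fgb: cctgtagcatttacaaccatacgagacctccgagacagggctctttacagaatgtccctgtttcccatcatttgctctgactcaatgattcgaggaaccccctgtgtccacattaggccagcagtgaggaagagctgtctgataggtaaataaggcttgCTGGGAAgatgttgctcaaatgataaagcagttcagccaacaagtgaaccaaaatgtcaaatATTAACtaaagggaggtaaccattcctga
Fgg: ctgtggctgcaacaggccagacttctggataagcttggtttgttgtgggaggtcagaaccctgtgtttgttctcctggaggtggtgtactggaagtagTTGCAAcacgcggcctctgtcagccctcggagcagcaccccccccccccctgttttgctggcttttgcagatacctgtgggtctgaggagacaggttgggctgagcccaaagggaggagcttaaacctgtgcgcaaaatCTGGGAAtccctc

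The lines stand for C6 (chr15:4726960-4727174, plus strand), C8a (chr4:104876399-104876648, minus strand), C8b (chr4:104766067-104766316, plus strand), Fga (chr3:83025903-83026075, plus strand), Fgb (chr3:83049864-83050113, minus strand) and Fgg (chr3:83007474-83007723, plus strand). For C6 and Fga the last 35 and 77 of the 250 bases before the RefSeq start lie inside the gene as GENCODE M21 draws it, and are not printed. In 250 bases before the start, the HNF1 motif was found in C8a (positions -107 to -102), in C8b (-206 to -201, reverse strand), in Fga (-43 to -38, reverse, in the part not printed) and in Fgb (-29 to -24, reverse). C6 and Fgg held none, but C6 (-186 to -181), Fga (-173 to -168) and Fgg (-152 to -147) each held TTGCAA, a letter string that reads the same on both strands. CTGGGAA was found in Fgb (-91 to -85) and Fgg (-13 to -7).

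Of the 39 genes, 30 matched a RefSeq promoter. The HNF1 motif was in 8 of these 30 promoters (26.7%: Hc, C8a, C8b, Fga, Fgb, F13b, Proz and Vtn), where 6.54% of all 27025 promoters of the same length held it. Of the 13 matched genes called lower in the knockouts, 7 held it, 53.8%. The HNF4 motif (CAAAGT) was in 7 of 30, beside 12.5% of all promoters, and in 2 of the 13. CTGGGAA was in 4 of 30 and 2 of the 13 (9.06% of all), and TTGCAA in 3 of 30 and 3 of the 13 (5.34% of all). The FOXA motif TGTTTAC was in 2 of 30 and 1 of the 13 (3.06% of all), and TATAAA in 3 of 30 and 2 of the 13 (12.98% of all). The shares among promoters of other genes made in liver were not counted. Each search took both strands. A match is only a string of letters, and no binding was measured.

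C6, which joins C5b to start the membrane attack complex, fell by 1.41 on the log2 scale in the controls and by 1.30 in the knockouts. C6 stood at 495, 616, 622 and 493 CPM in the chow controls and 361, 495, 393 and 448 CPM in the chow knockouts. For C6, the livers of high-fat-fed mice gave 348, 212, 111 and 167 CPM (controls) and 186, 134, 209.6 and 157 CPM (knockouts). All 8 high-fat livers were below all 8 chow livers, although high-fat control 1 came near the lowest chow knockout. The difference was 2.66-fold in the controls (edgeR log2 fold change -1.41, SE 0.25, adjusted p = 0.00909) and 2.47-fold in the knockouts (edgeR log2 fold change -1.30, SE 0.25, adjusted p = 0.00641).

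C8a and C8b encode the alpha and beta chains of C8, which anchor the complex in the membrane. C8a stood at 1096, 1188, 1471 and 1487 CPM in the chow controls and 964, 1222, 1132 and 1072 CPM in the chow knockouts. For C8a, the livers of high-fat-fed mice gave 622, 586, 367 and 827 CPM (controls) and 475, 459.6, 661 and 499.5 CPM (knockouts). No high-fat liver reached a chow liver for C8a, and high-fat control 3 was the lowest of all 16. It fell 2.18-fold in the controls (edgeR log2 fold change -1.13, SE 0.20, adjusted p = 0.00909) and 2.1-fold in the knockouts (edgeR log2 fold change -1.07, SE 0.20, adjusted p = 0.00552). C8b read 471, 504, 718 and 516 CPM in the chow controls and 402, 603, 468 and 564 CPM in the chow knockouts. For C8b, the livers of high-fat-fed mice gave 220.2, 151, 224 and 233 CPM (controls) and 100.4, 133, 296 and 172 CPM (knockouts). C8b was below every chow liver in all 8 high-fat livers, and within the high-fat knockouts numbers 1 and 3 lay farthest apart. The fall was 2.67-fold in the controls (edgeR log2 fold change -1.42, SE 0.26, adjusted p = 0.0101) and 2.9-fold in the knockouts (edgeR log2 fold change -1.54, SE 0.26, adjusted p = 0.00367).

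C8g encodes the gamma chain of C8, a lipocalin that binds the alpha chain, and it did not pass in either genotype. C8g was measured at 339, 336, 365 and 197 CPM in the chow controls and 337, 245, 283 and 322 CPM in the chow knockouts. For C8g, the livers of high-fat-fed mice gave 342, 347, 732 and 348 CPM (controls) and 253, 245, 310.3 and 321 CPM (knockouts). The high-fat controls other than number 3 lay between 342 and 348 CPM, within the range of the chow controls, while the 732 CPM of high-fat control 3 were the highest of the 16 livers. The log2 fold change was 0.51 (SE 0.24, adjusted p = 0.278) in the controls and -0.07 (SE 0.24, adjusted p = 0.876) in the knockouts by edgeR. Set against C8a within each liver and per length, a ratio chosen after the values were seen and so given with no test, C8g was at 0.753, 0.689, 0.605 and 0.323 of C8a in the chow controls and 0.851, 0.488, 0.608 and 0.73 in the chow knockouts. On the high-fat diet the ratio was 1.34, 1.44, 4.85 and 1.02 in the controls and 1.3, 1.3, 1.14 and 1.57 in the knockouts, above every chow liver. The gene overlaps Fbxw5 on the opposite strand by 970 bases, and whether counting used strand is not known from the labels, so reads of that stretch are uncertain.

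The other listed terminal genes stayed short of the threshold. Hc, whose product starts terminal assembly, had a log2 fold change of -0.38 (SE 0.16, adjusted p = 0.23) in the controls and -0.41 (SE 0.16, adjusted p = 0.0952) in the knockouts by edgeR. C9, which polymerises into the pore, had -0.35 (SE 0.19, adjusted p = 0.36) and -0.44 (SE 0.19, adjusted p = 0.132), likewise by edgeR. Of the 6 listed genes of the terminal pathway, then, 3 were called lower in each genotype, the same 3.

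**Figure D3:**
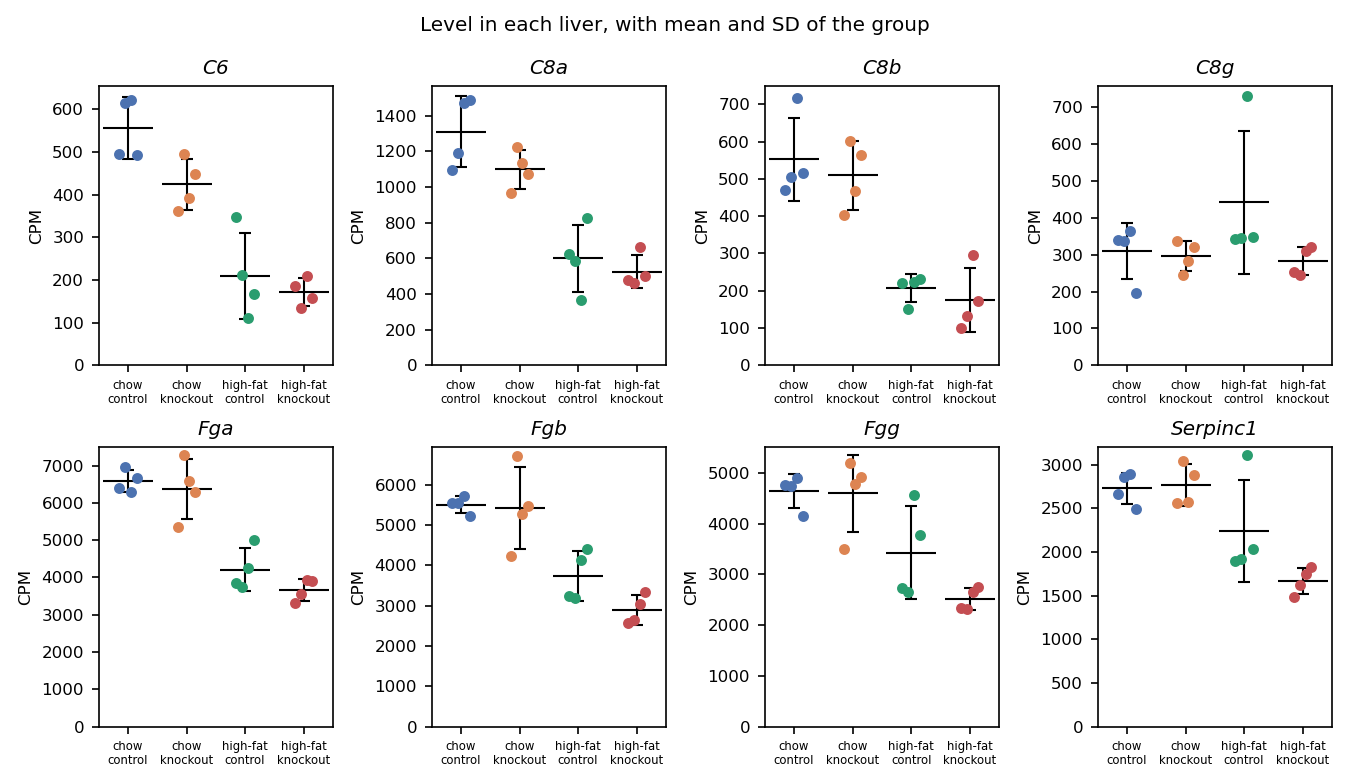
CPM of selected genes in each of the 16 livers by group. Points are livers, and the black marks give the mean and SD of each group. The 8 high-fat livers lie below the 8 chow livers for C6, C8a, C8b and Fga, and high-fat control 3 stands above the rest for C8g.

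Of the fibrin-forming genes, 1 of 4 fell in the controls and 4 of 4 in the knockouts. The fibrinogen genes lie together on chromosome 3 within 42140 bases (chr3:83007724-83049863), Fgg and Fga on the plus strand and Fgb facing them. Fga stood at 6401, 6961, 6286 and 6677 CPM in the chow controls and 5355, 7285, 6582 and 6289 CPM in the chow knockouts. For Fga, the livers of high-fat-fed mice gave 3840.4, 3737, 4258 and 4992 CPM (controls) and 3314, 3549.7, 3920.2 and 3914 CPM (knockouts). Every high-fat liver was below every chow liver. Fga fell 1.56-fold in the controls (edgeR log2 fold change -0.65, SE 0.14, adjusted p = 0.0224) and 1.74-fold in the knockouts (edgeR log2 fold change -0.80, SE 0.14, adjusted p = 0.0039). In the controls the call was lost without chow control 2 or 4 or high-fat control 1 or 2.

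Fgb measured 5547, 5538, 5713 and 5212 CPM in the chow controls and 4221, 6708, 5260 and 5462 CPM in the chow knockouts. For Fgb, the livers of high-fat-fed mice gave 3232, 3182, 4131 and 4412 CPM (controls) and 2557, 2638, 3032 and 3345 CPM (knockouts). High-fat and chow livers of one genotype did not overlap for Fgb. It fell 1.87-fold in the knockouts (edgeR log2 fold change -0.90, SE 0.16, adjusted p = 0.00439), whereas the value in the controls did not pass (edgeR log2 fold change -0.56, SE 0.16, adjusted p = 0.0795, DESeq2 adjusted p = 0.0184). Fgg was at 4767, 4743, 4904 and 4153 CPM in the chow controls and 3501, 5196, 4775 and 4917 CPM in the chow knockouts. For Fgg, the livers of high-fat-fed mice gave 2737, 2649, 4561 and 3773 CPM (controls) and 2337, 2323, 2662 and 2745 CPM (knockouts). High-fat control 3 lay among the chow controls, and the other high-fat livers were below every control on chow. Fgg fell 1.83-fold in the knockouts (edgeR log2 fold change -0.87, SE 0.18, adjusted p = 0.00767) and did not pass in the controls (edgeR log2 fold change -0.44, SE 0.18, adjusted p = 0.211). Per length, the ratio of Fgb to Fga within a liver was 0.587 to 0.766 over the 16 livers, and that of Fgg to Fga 0.895 to 1.54, the last in high-fat control 3.

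F13b, the carrier subunit of the factor that cross-links fibrin, did not pass in the controls and fell in the knockouts. F13b stood at 244, 260.1, 293 and 309 CPM in the chow controls and 291, 249.7, 294 and 239 CPM in the chow knockouts. For F13b, the livers of high-fat-fed mice gave 198, 228, 371 and 281 CPM (controls) and 169.8, 163, 178 and 191 CPM (knockouts). The high-fat controls spanned the widest range, with 371 CPM in high-fat control 3, and the 4 high-fat knockouts were the lowest group. F13b fell 1.53-fold with diet in the knockouts (edgeR log2 fold change -0.61, SE 0.17, adjusted p = 0.0271), beside -0.039 on the log2 scale in the controls (edgeR adjusted p = 0.942). The interaction of genotype and diet, which tests that difference, was -0.58 (SE 0.23, adjusted p = 0.365) by edgeR and did not pass.

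The vitamin K-dependent group holds 7 genes: the proteases F2 (prothrombin), F7, F9 and F10, the anticoagulants Proc (protein C) and Pros1, and Proz (protein Z), which aids an inhibitor of factor X. None passed in the controls and 2 of 7 fell in the knockouts, F10 and Proz, which lie with F7 within 49993 bases of chromosome 8. F10 stood at 407, 461, 492 and 470.3 CPM in the chow controls and 344, 431, 413 and 420.5 CPM in the chow knockouts. For F10, the livers of high-fat-fed mice gave 296, 296, 432 and 348 CPM (controls) and 236, 251, 305 and 280.2 CPM (knockouts). In the knockouts the diets did not overlap, and in the controls only high-fat control 3 reached the chow range. F10 fell 1.5-fold in the knockouts (edgeR log2 fold change -0.59, SE 0.14, adjusted p = 0.0174). Proz read 384, 468, 464 and 488 CPM in the chow controls and 476, 430.2, 377 and 373 CPM in the chow knockouts. For Proz, the livers of high-fat-fed mice gave 379.9, 329, 320.2 and 351 CPM (controls) and 266, 264, 333 and 318 CPM (knockouts). No high-fat liver was above a chow liver of its genotype. Proz fell 1.4-fold in the knockouts (edgeR log2 fold change -0.49, SE 0.13, adjusted p = 0.0266). The calls of F10 and Proz were lost without high-fat knockout 1 or 2 and without chow knockout 2, and that of Proz also without chow knockout 1.

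The remaining 5 did not pass with diet in either genotype. In the knockouts their log2 fold changes ran from -0.46 for F9 to -0.31 for Pros1, and in the controls from -0.47 for F7 to 0.15 for F9. F9 stood at 204, 201, 279 and 246 CPM in the chow controls and 321, 217, 217 and 185 CPM in the chow knockouts. For F9, the livers of high-fat-fed mice gave 226, 221, 323 and 265 CPM (controls) and 183, 153, 168 and 178 CPM (knockouts). High-fat control 3 and chow knockout 1 were the highest of the 16 livers, and the high-fat knockouts lay below every chow knockout. The diet difference of F9 was -0.46 (SE 0.17, adjusted p = 0.0897) in the knockouts and 0.15 (SE 0.17, adjusted p = 0.719) in the controls by edgeR. F7 was found at 72.4, 105, 116 and 85.2 CPM in the chow controls and 78.6, 69.7, 81.3 and 79.7 CPM in the chow knockouts. For F7, the livers of high-fat-fed mice gave 71.6, 61.6, 67 and 72.8 CPM (controls) and 47.3, 54.1, 75.8 and 64.1 CPM (knockouts). The diets overlapped for F7 in both genotypes.

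In the cofactor and contact group, Kng1 and Klkb1 fell in the knockouts and none of the 5 passed in the controls. Kng1 encodes kininogen, the source of bradykinin, and Klkb1 plasma prekallikrein, whose active form releases it. Kng1 stood at 2372, 2699, 3378 and 2479.6 CPM in the chow controls and 2434, 2570.2, 2430.4 and 2442 CPM in the chow knockouts. For Kng1, the livers of high-fat-fed mice gave 1580.2, 1653, 2625 and 2009.8 CPM (controls) and 1320.1, 1338, 1579 and 1715 CPM (knockouts). The high-fat knockouts were all below the other livers of their genotype, and high-fat control 3 again lay in the chow range. Kng1 fell 1.66-fold in the knockouts (edgeR log2 fold change -0.73, SE 0.17, adjusted p = 0.0133), beside -0.47 (SE 0.17, adjusted p = 0.15) in the controls. Klkb1 read 275, 286, 248 and 279.5 CPM in the chow controls and 381, 251, 315 and 259 CPM in the chow knockouts. For Klkb1, the livers of high-fat-fed mice gave 218, 245, 298 and 274 CPM (controls) and 177, 171, 209 and 229 CPM (knockouts). The high-fat controls ran from below to above the chow controls, while each high-fat knockout was below each chow knockout. It fell 1.53-fold in the knockouts (edgeR log2 fold change -0.62, SE 0.15, adjusted p = 0.018), beside -0.073 (SE 0.15, adjusted p = 0.865) in the controls. Reads of Kng1 can be shared with its near copy Kng2, which held 2834 to 7234 counts per liver against 23298 to 65773 for Kng1, and Klkb1 lies inside the model of a longer gene, so both are uncertain to that extent.

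F11, F12 and F5 made up the rest of that group. F11 stood at 90.7, 109, 112 and 168 CPM in the chow controls and 103, 82.1, 94.9 and 90 CPM in the chow knockouts. For F11, the livers of high-fat-fed mice gave 99.8, 68.9, 60.7 and 70.8 CPM (controls) and 68, 86.7, 121 and 107 CPM (knockouts). In the controls, 3 of 4 high-fat livers were below all chow controls, and in the knockouts the groups overlapped fully. The log2 fold change of F11 with diet was -0.67 (SE 0.20, adjusted p = 0.0945) in the controls by edgeR, where DESeq2 called it lower (adjusted p = 0.047), and 0.046 (SE 0.20, adjusted p = 0.907) in the knockouts. F5 was at 754, 859.5, 825 and 1059 CPM in the chow controls and 1478, 865, 933 and 804 CPM in the chow knockouts. For F5, the livers of high-fat-fed mice gave 976, 891, 899 and 784 CPM (controls) and 752, 853, 953 and 863 CPM (knockouts). For F5, the cofactor of factor X, the chow knockouts held both the highest liver, chow knockout 1, and values like those of the other groups. Its diet difference was 0.022 (SE 0.18, adjusted p = 0.972) in the controls and -0.25 (SE 0.18, adjusted p = 0.357) in the knockouts by edgeR. F12, the contact factor, was at -0.27 (SE 0.13, adjusted p = 0.302) and -0.14 (SE 0.13, adjusted p = 0.501), likewise by edgeR.

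Of the inhibitors and fibrinolysis genes, 4 of 7 fell in the knockouts and none passed in the controls. Serpinc1 encodes antithrombin, the main inhibitor of thrombin. Serpinc1 stood at 2667, 2857, 2887 and 2497 CPM in the chow controls and 2554, 3039.5, 2576 and 2883 CPM in the chow knockouts. For Serpinc1, the livers of high-fat-fed mice gave 1896, 1915, 3114 and 2033 CPM (controls) and 1489, 1617, 1742 and 1829.5 CPM (knockouts). High-fat control 3 was the highest of all 16 livers, and the other 7 high-fat livers were below every chow liver. Serpinc1 fell 1.66-fold in the knockouts (edgeR log2 fold change -0.73, SE 0.16, adjusted p = 0.0103), beside -0.28 (SE 0.16, adjusted p = 0.382) in the controls.

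Vtn and Plg act on clots and their removal, and Serpinf2 blocks plasmin. Vtn stood at 2523, 3143, 3580.2 and 2499.5 CPM in the chow controls and 2329, 2379, 2439 and 2539 CPM in the chow knockouts. For Vtn, the livers of high-fat-fed mice gave 2052, 1877, 1959 and 2116 CPM (controls) and 1505, 1566, 2002 and 1694 CPM (knockouts). No high-fat liver reached a chow liver of its genotype. Vtn fell 1.43-fold in the knockouts (edgeR log2 fold change -0.52, SE 0.14, adjusted p = 0.0285) and narrowly missed in the controls (edgeR log2 fold change -0.55, SE 0.14, adjusted p = 0.052, DESeq2 adjusted p = 0.00315). Plg read 1868, 2308, 2348 and 2261 CPM in the chow controls and 2525, 1780.2, 1935 and 1801 CPM in the chow knockouts. For Plg, the livers of high-fat-fed mice gave 1867, 1617, 1684 and 1685 CPM (controls) and 1174, 1375, 1707 and 1456 CPM (knockouts). The diets just failed to overlap in each genotype, the closest pair being high-fat control 1 and chow control 1. Plg fell 1.41-fold in the knockouts (edgeR log2 fold change -0.49, SE 0.15, adjusted p = 0.0434), a call lost when any of 11 livers was left out. Serpinf2 was measured at 910.3, 1144, 959 and 988 CPM in the chow controls and 945, 825, 963 and 854 CPM in the chow knockouts. For Serpinf2, the livers of high-fat-fed mice gave 765, 673, 874 and 805 CPM (controls) and 519.9, 598, 750.3 and 702 CPM (knockouts). Again the diets did not overlap in either genotype. Serpinf2 fell 1.4-fold in the knockouts (edgeR log2 fold change -0.48, SE 0.14, adjusted p = 0.0376), beside -0.36 (SE 0.14, adjusted p = 0.193) in the controls.

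Serpind1 (heparin cofactor II), Cpb2 (the carboxypeptidase that slows fibrin breakdown) and Hrg (histidine-rich glycoprotein) did not pass by edgeR. Cpb2 stood at 318, 383, 543 and 376 CPM in the chow controls and 310.1, 348, 323 and 352 CPM in the chow knockouts. For Cpb2, the livers of high-fat-fed mice gave 272, 276, 431 and 333 CPM (controls) and 245, 226, 256 and 232 CPM (knockouts). The high-fat knockouts were all below the chow knockouts. DESeq2 called Cpb2 lower in the knockouts (adjusted p = 0.0472), where edgeR gave -0.48 (SE 0.17, adjusted p = 0.0734). Hrg was dominated by 1 liver, chow knockout 1 at 1208 CPM, with the other 15 livers between 385 and 754 CPM. Its diet difference was 0.0065 (SE 0.26, adjusted p = 0.994) in the controls and -0.52 (SE 0.26, adjusted p = 0.199) in the knockouts by edgeR.

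In the central and alternative arm, Cfi fell in the knockouts. Cfi encodes factor I, the protease that inactivates C3b and C4b. Cfi stood at 633, 792, 993 and 757 CPM in the chow controls and 709, 815, 728 and 708 CPM in the chow knockouts. For Cfi, the livers of high-fat-fed mice gave 528, 527, 812 and 675 CPM (controls) and 465, 457, 538 and 516 CPM (knockouts). The high-fat knockouts did not overlap the chow knockouts, whereas high-fat control 3 was above 3 of the chow controls. It fell 1.5-fold (edgeR log2 fold change -0.58, SE 0.16, adjusted p = 0.0297), beside -0.32 (SE 0.16, adjusted p = 0.319) in the controls. C3 stood at 7780.1, 8789, 9758 and 10571 CPM in the chow controls and 8219, 7823, 7831 and 6943 CPM in the chow knockouts. For C3, the livers of high-fat-fed mice gave 7318, 6144, 4472 and 6786 CPM (controls) and 5306, 5548, 7561 and 5423 CPM (knockouts). Every high-fat control was below every chow control, and high-fat knockout 3 reached the chow knockouts. C3 had a log2 fold change of -0.58 (SE 0.17, adjusted p = 0.0858) in the controls by edgeR, with a DESeq2 adjusted p of 0.0211, and -0.37 (SE 0.17, adjusted p = 0.157) in the knockouts. Serping1 (C1 inhibitor) was at -0.45 (SE 0.15, adjusted p = 0.119) and -0.34 (SE 0.15, adjusted p = 0.141) by edgeR.

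Among the lectin and classical genes, 0 of 6 passed by edgeR in either genotype. Mbl1 and Mbl2 encode the mannose-binding lectins. Mbl1 stood at 237, 212, 221 and 194 CPM in the chow controls and 160.1, 261, 196 and 213 CPM in the chow knockouts. For Mbl1, the livers of high-fat-fed mice gave 201, 164, 267 and 246 CPM (controls) and 159, 143, 149 and 144 CPM (knockouts). The high-fat knockouts were the lowest group and did not overlap the high-fat controls or the chow knockouts, which had 1 low liver, chow knockout 1. In the knockouts Mbl1 was at -0.48 (SE 0.16, adjusted p = 0.0616) by edgeR, where DESeq2 called it lower (adjusted p = 0.0336), and in the controls at 0.023 (SE 0.16, adjusted p = 0.966). C2 was at 47.6, 65, 83.5 and 45.9 CPM in the chow controls and 56.6, 38.4, 54.3 and 57.4 CPM in the chow knockouts. For C2, the livers of high-fat-fed mice gave 34.2, 31.1, 38.1 and 42.7 CPM (controls) and 36.2, 37.5, 52.8 and 38.6 CPM (knockouts). The high-fat controls were all below the chow controls. For C2 the difference in the controls was -0.73 (SE 0.19, adjusted p = 0.0643) by edgeR and it was called lower by DESeq2 (adjusted p = 0.0208), and in the knockouts it was -0.32 (SE 0.19, adjusted p = 0.283). C2 and Cfb are 85 bases apart and both lie inside a longer read-through gene model, so that reads of this locus are uncertain.

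C4b, the C4 protein cut by the lectin and classical proteases, had the highest positive diet value in the knockouts. C4b stood at 1523, 1521, 2157 and 1559 CPM in the chow controls and 1796, 1253, 1590.2 and 1373 CPM in the chow knockouts. For C4b, the livers of high-fat-fed mice gave 1639.5, 1509, 1462 and 1902 CPM (controls) and 1662, 1893, 1902 and 1773 CPM (knockouts). The groups overlapped throughout. Its log2 fold change was 0.27 (SE 0.15, adjusted p = 0.264) in the knockouts and -0.054 (SE 0.15, adjusted p = 0.904) in the controls by edgeR. The near copy C4a held 162 to 581 counts per liver beside 18408 to 42011 for C4b. Mbl2 read 325, 325, 375 and 356 CPM in the chow controls and 379.9, 407, 332 and 368 CPM in the chow knockouts. For Mbl2, the livers of high-fat-fed mice gave 169, 283, 485 and 304 CPM (controls) and 309, 318, 334 and 373 CPM (knockouts). High-fat control 1 was the lowest and high-fat control 3 the highest of the 16 livers for Mbl2. The diet difference was -0.15 (SE 0.21, adjusted p = 0.78) in the controls and -0.16 (SE 0.21, adjusted p = 0.662) in the knockouts by edgeR.

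The genotype comparison asked what loss of Degs1 in the liver did to these genes on each diet. On chow, 0 of the 39 genes passed by edgeR, where 0.0139% of all genes did. None reached an unadjusted p under 0.05 either, where 9.52% of all genes did, and DESeq2 (0.348% of all genes) and limma-voom (0.0209% of all genes) also called 0. The groups overlapped for all 39 genes, where 6.34% of all genes did not overlap. By sign, 33 of 39 were below 0 (84.6%, where 51% of all genes were), with a median log2 fold change of -0.13 beside -0.0070 over all genes. With the TEC and intronic share as a covariate this median was -0.034, beside -0.022 over all genes. The share was at most 0.0411% in these controls and at least 0.0463% in these knockouts, so that fit cannot separate it from genotype.

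The 5 lowest p-values below 0 on chow belonged to Cfb, Vtn, F7, F11 and F12, and those above 0 to F5, Klkb1, Mbl2, Hrg and Serpinc1. Cfb stood at 67.8, 107, 123 and 58.5 CPM in the chow controls and 36.8, 59.2, 67.1 and 89.3 CPM in the chow knockouts. For Cfb, the livers of high-fat-fed mice gave 50.7, 55.4, 77.9 and 74 CPM (controls) and 63.7, 59.2, 70.5 and 57.1 CPM (knockouts). Chow control 3 and chow knockout 1 were the highest and the lowest of the 16 livers for Cfb, the protease of the alternative C3 convertase. The difference was -0.49 (SE 0.25, adjusted p = 0.534) by edgeR. Vtn was at -0.28 (SE 0.14, adjusted p = 0.535), F7 at -0.29 (SE 0.16, adjusted p = 0.555), F11 at -0.37 (SE 0.20, adjusted p = 0.558) and F12 at -0.24 (SE 0.13, adjusted p = 0.563), all by edgeR. Above 0, F5 was at 0.22 (SE 0.18, adjusted p = 0.69), Klkb1 at 0.15 (SE 0.15, adjusted p = 0.769) and Mbl2 at 0.11 (SE 0.21, adjusted p = 0.894) by edgeR, and Hrg and Serpinc1 at 0.064 and 0.019.

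On the high-fat diet, 0 of 39 genes passed by edgeR, where 0.111% of all genes did. At an unadjusted p under 0.05 there were 14, all lower in the knockouts (35.9%, where 12.8% of all genes were lower), and for 7 genes every knockout was below every control (17.9%, where 7.78% were). DESeq2 called 4 lower, F13b, Mbl1, F9 and Serpind1 (10.3%, where 2.56% of all genes were called lower), and limma-voom called 0, where it called 0.216% of all genes. The median log2 fold change was -0.24, beside 0.026 over all genes, and 34 of 39 were below 0 (87.2%, where 47.8% of all genes were). Another list, 20 other plasma proteins made by hepatocytes, had a median of -0.27 with 20 of 20 below 0. With the TEC and intronic share as a covariate the median of the 39 genes was -0.14, beside -0.034 over all genes. That share had a median of 0.0873% in the high-fat controls and 0.166% in the high-fat knockouts, and Malat1 one of 1869 and 3484 CPM. The covariate fit cannot fully separate the share from genotype on this diet.

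F13b and F9 had values in the high-fat knockouts that lay below every high-fat control, as given with the diet results. The genotype difference of F13b on the high-fat diet was -0.62 (SE 0.17, adjusted p = 0.0981) by edgeR (DESeq2 adjusted p = 0.0235), and that of F9, the protease lacking in haemophilia B, was -0.60 (SE 0.17, adjusted p = 0.106) (DESeq2 adjusted p = 0.0358). Mbl1 was at -0.56 (SE 0.16, adjusted p = 0.103) by edgeR (DESeq2 adjusted p = 0.0311), with each knockout below each control. Serpind1 stood at 637, 739, 878 and 702 CPM in the chow controls and 772, 627, 599.8 and 658 CPM in the chow knockouts. For Serpind1, the livers of high-fat-fed mice gave 646, 619, 923 and 651 CPM (controls) and 457, 446, 554 and 538 CPM (knockouts). High-fat control 3 was the highest of all 16 livers for Serpind1, and all 4 high-fat knockouts were below the other 12. Its genotype difference was -0.51 (SE 0.15, adjusted p = 0.11) by edgeR (DESeq2 adjusted p = 0.0386). Serpind1 overlaps Pi4ka on the opposite strand by 12205 bases, so its reads are uncertain to that extent. Pi4ka held 14201 counts over the 16 livers together. C8g was at -0.65 (SE 0.24, adjusted p = 0.141) by edgeR. High-fat control 3 was the highest of its group for each of these 5 genes, and without it the smallest edgeR adjusted p over the 39 genes was 0.219 in place of 0.0981. Over the omissions of each of the 16 livers that value ran from 0.054 (without high-fat control 1) to 0.293 (without high-fat knockout 2), and none of the 39 passed.

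Above 0 on the high-fat diet stood F11 at 0.35 (SE 0.20, adjusted p = 0.321), Masp1 at 0.21 (SE 0.17, adjusted p = 0.479), C2 at 0.17 (SE 0.19, adjusted p = 0.606), C4b at 0.15 (SE 0.15, adjusted p = 0.571) and Mbl2 at 0.10 (SE 0.21, adjusted p = 0.79), all by edgeR. Masp1 stood at 200, 264, 208 and 260.2 CPM in the chow controls and 319.8, 194, 198 and 196 CPM in the chow knockouts. For Masp1, the livers of high-fat-fed mice gave 206, 188, 151 and 159 CPM (controls) and 181, 196, 229 and 205 CPM (knockouts). Masp1, a protease bound to mannose-binding lectin, was highest in chow knockout 1 and its high-fat groups overlapped. The 4 macrophage markers at an unadjusted p under 0.05, all higher in the high-fat knockouts, moved the other way from the 14 members, and the hepatocyte markers, 7 of 7 below 0 with none called, moved with them. Their part in these values was not tested.

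**Figure D4:**
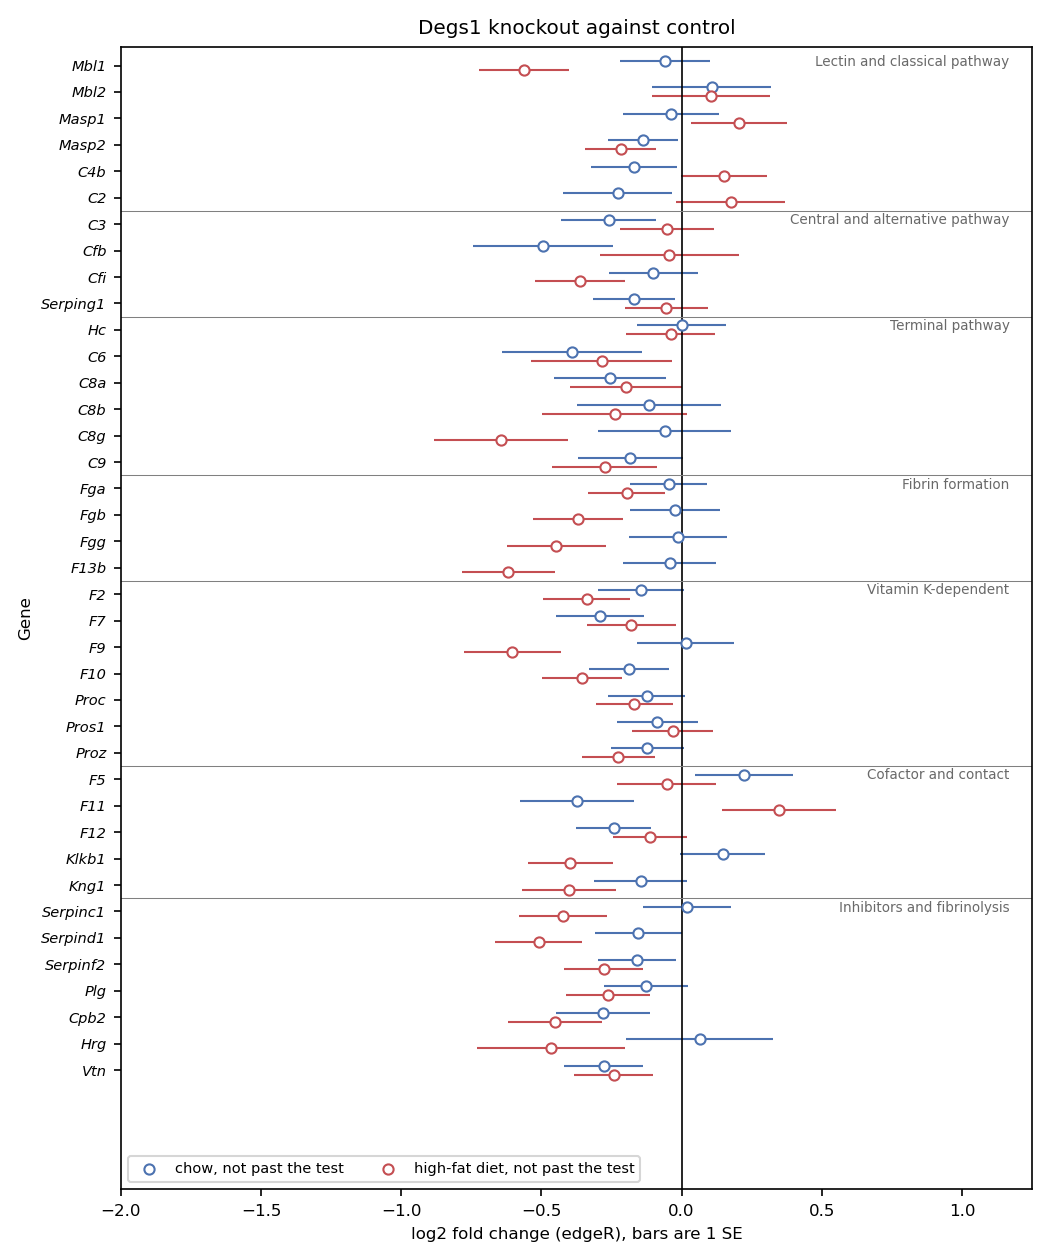
Log2 fold change of knockout against control for each of the 39 genes, on chow and on the high-fat diet, with bars of 1 SE. No gene passed by edgeR on either diet, and on the high-fat diet F13b, F9, Mbl1, Serpind1 and C8g lie farthest below 0.

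Whether the knockout effect differed between diets was tested as an interaction. It passed for 0 of the 39 genes by edgeR, where 0% of all genes passed, and DESeq2 (0.578% of all genes) and limma-voom (0% of all genes) also called 0 of 39. At an unadjusted p under 0.05 by edgeR, 4 were below 0 and 1 above 0, where 5.89% and 5.37% of all genes were. Below 0 were Klkb1 at -0.54 (SE 0.21, adjusted p = 0.35), F9 at -0.62 (SE 0.25, adjusted p = 0.352), F13b at -0.58 (SE 0.23, adjusted p = 0.365) and Mbl1 at -0.50 (SE 0.23, adjusted p = 0.423) by edgeR, followed by Serpinc1 at -0.44. Above 0 was F11 at 0.72 (SE 0.29, adjusted p = 0.356) by edgeR, whose log2 difference between genotypes was -0.37 on chow and 0.35 on the high-fat diet. C4b, C2, Cfb and Masp1 were next, at 0.32, 0.40, 0.45 and 0.24. By this test, the 16 calls with diet in the knockouts beside 4 in the controls are not shown to differ between genotypes. In simulated data the interaction test called 22.2% of genes given an interaction of 1 on the log2 scale, drawn from all genes tested. The interactions of the 39 genes were smaller, from -0.62 to 0.72. How often the test misses differences of that size in these genes was not simulated.

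Other genes of these pathways were taken from lists drawn up by role. Of 24 further complement genes, 1 fell with diet in the controls, where 0.885% of all genes fell. It was C1ra (edgeR log2 fold change -0.76, SE 0.14, adjusted p = 0.00909), a protease of the C1 complex. In the knockouts, 3 of the 24 fell, where 5.35% of all genes did. Among them were C1ra (edgeR log2 fold change -0.66, SE 0.14, adjusted p = 0.00823) and Cfhr2 (edgeR log2 fold change -0.92, SE 0.23, adjusted p = 0.0195, lost without high-fat knockout 1 or 2). Another 2 of the 24 rose, where 5.21% of all genes did. C1ra stood at 223, 268, 309.8 and 233 CPM in the chow controls and 151, 143, 149 and 169 in the high-fat controls, with every high-fat liver below every chow liver. C3ar1, a receptor of myeloid cells, was the first (edgeR log2 fold change 0.83, SE 0.26, adjusted p = 0.0489), a call lost when any of 11 livers was left out and not made by limma-voom (adjusted p = 0.0655). Cfd, factor D, was the other by edgeR (adjusted p = 0.0201), at 0, 0.237, 0.181 and 0.137 CPM in the chow knockouts and 3.53, 1.65, 0 and 7.32 CPM in the high-fat knockouts. These groups overlapped for Cfd, its log2 fold change was 4.29 by edgeR and 2.65 by limma-voom (adjusted p = 0.459), and the edgeR call was lost without chow knockout 2 or 4 or high-fat knockout 4.

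Of 16 further coagulation genes tested, 2 rose in the knockouts, Vwf, which endothelium makes (edgeR log2 fold change 0.50, SE 0.15, adjusted p = 0.0397), and F13a1, which macrophages and platelets make (edgeR log2 fold change 2.16, SE 0.64, adjusted p = 0.0398), and 0 fell, where 5.21% of all genes rose and 5.35% fell. Both calls were lost when any of 6 livers was left out, the groups overlapped for both genes, and limma-voom did not call F13a1 (adjusted p = 0.104). Of 17 regulators of secretion and expression, 1 fell in the knockouts, where 5.35% of all genes fell. It was Cebpb (edgeR log2 fold change -0.75, SE 0.23, adjusted p = 0.0477), a factor of the acute-phase response, whose call was lost when any of 10 livers was left out. All 17 were below 0 in the knockouts, where 48.1% of all genes were, with a median of -0.19. Of 20 other plasma proteins made by hepatocytes, 5 fell in the knockouts, where 5.35% of all genes fell, and 1 in the controls, where 0.885% did. With diet, 17 of these 20 were below 0 in the knockouts (median -0.36), where 48.1% of all genes were. In the controls 16 of the 20 were (median -0.21), where 48.7% of all genes were. Between genotypes, 0 genes of these lists passed by edgeR on either diet, where 0.0139% of all genes passed on chow and 0.111% on the high-fat diet. Among the nearest on the high-fat diet was Cfhr2 (edgeR log2 fold change -0.92, SE 0.23, adjusted p = 0.0953, DESeq2 adjusted p = 0.0145). On chow the nearest was Il1r1 (edgeR log2 fold change 1.20, SE 0.33, adjusted p = 0.353), a receptor of the acute-phase cytokine interleukin-1.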

How the data were processed

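The values deposited by the authors are raw counts of reads for every Ensembl gene and liver, whole numbers with different totals per column. The submitters' processing notes name GRCm38 as build and list STAR 2.5.4a, featureCounts 1.5.1 and DESeq2. Whether counting used strand, how reads with several matches were treated and which annotation was used is not known from the labels, and 15 of the 39 members overlap another annotated gene. All 16 columns matched a sample title, with 0 left unmapped. Gene names and exon lengths came from GENCODE M21 on the same build, and promoters from RefSeq on GRCm38.p6.

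The 39 members and the other gene lists were chosen with earlier results of these data known. Groups came from diet and genotype in the titles. Genes were filtered with filterByExpr (minimum count 10), scaled by TMM and fitted with a term per group over all 16 livers in edgeR 4.0.16 (R 4.3.3), with quasi-likelihood F tests and Benjamini-Hochberg adjustment over 14351 genes at 0.05. SE is the absolute log2 fold change divided by the square root of F. CPM use TMM-scaled totals, and RPKM divide them by the joined length of all annotated exons of a gene. Totals of 11938596 to 23250885 make a count of 3 worth 0.135 to 0.293 CPM. Over 24 pairs of same-group livers the chi-square of their counts per degree of freedom lay between 12.28 and 125.6, more than sampling noise gives. The labels name separate animals and no pairing. Alternatives were DESeq2 1.42.0, limma-voom (limma 3.58.1), RLE and upper-quartile scaling, no filter, 2-group fits, omission of each liver, joint omission of high-fat control 3 and chow knockout 1, and the intronic and TEC share as a covariate. The edgeR step was tested on simulated data.

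Tests are given for every member called and, per comparison, for the 5 members in each direction with the smallest p, with the 3 smallest from the other pathway genes, of which some are not reported here. Values per liver are given for members called by edgeR or DESeq2 or among the 3 smallest p in a direction. Values given for other members were chosen after they were seen, for completeness of a role, as were the C8 and fibrinogen ratios.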

Additional observations from a re-analysis of the deposited data

Results flagged for a closer look

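Within each group of 4, the level of every member was checked for a single liver far from the other 3, and 15 of 156 group values had one; chance gives about 1 in 20. In chow knockout 1, Masp1 (319.8 CPM), Serping1 (770.2 CPM) and Hrg (1208 CPM) were far above the other chow knockouts. In high-fat control 3, C8g (732 CPM), Serpinc1 (3114 CPM) and Serpind1 (923 CPM) were far above the other high-fat controls. High-fat knockout 3 was far above its group for C2 (52.8 CPM) and C3 (7561 CPM). Chow knockout 2 was the low liver of its group for C2 (38.4 CPM) and the high one for Kng1 (2570.2 CPM). Single livers were high for C4b (2157 CPM in chow control 3) and F2 (1879 CPM in chow knockout 4). Single livers were low for C8b (151 CPM in high-fat control 2), C8g (197 CPM in chow control 4) and Plg (1868 CPM in chow control 1).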

How the results depend on the processing

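No paired analysis was possible because the labels give each animal its own number and share none between groups. The counts called were 0, 0, 4, 16 and 0 (knockout on chow, knockout on the high-fat diet, diet in controls, diet in knockouts, interaction). DESeq2 called 4 in the second and 9 in the third comparison, where it called 2.56% and 1.97% of all genes lower. The fit with no filter called 3 in the second, where 1.43% of the genes in that fit were called lower. In the diet comparison of controls, the 2-group fit called 1, the fit that omits both high-fat control 3 and chow knockout 1 called 12 and the covariate fit 8. In that order these fits called 0.272%, 2.99% and 4.69% of all genes lower, beside 0.885% in the main fit. For diet in knockouts, upper-quartile scaling called 10 and the covariate fit 6, with a median of -0.32. They called 3.11% and 3.52% of all genes lower, beside 5.35% in the main fit. Leaving out 1 liver at a time gave 3 to 11 for diet in controls and 7 to 21 for diet in knockouts. Without high-fat control 3 the first was 11 and the second 21, where 2.27% and 10.6% of all genes were called lower.

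Degs1 did not pass in the covariate fit on chow (-0.96, edgeR adjusted p = 0.0543) or on the high-fat diet (-0.92, edgeR adjusted p = 0.0535), nor in the 2-group fit on the high-fat diet (-1.24, edgeR adjusted p = 0.142). Omitting single livers gave -1.18 to -1.13 on chow, with the call lost for 7 of them.

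Members near 0 changed sign. Hrg for the knockout on chow was -0.045 by limma-voom, -0.38 without both livers, -0.0022 in the covariate fit and -0.40 to 0.21 with single livers omitted. With single livers omitted, F5 and Serpinc1 for the knockout on chow ran from -0.012 to 0.34 and from -0.030 to 0.055, and Mbl2 for the knockout on the high-fat diet from -0.10 to 0.40. For diet in controls, Mbl1 was -0.083 without both livers (single omissions -0.085 to 0.14), F5 -0.085 in the covariate fit (-0.043 to 0.15), and Hrg -0.085 and -0.054 in these fits (-0.093 to 0.13). Masp1 for the knockout on the high-fat diet was -0.033 in the covariate fit, and F11 for diet in knockouts -0.20 (-0.087 to 0.18). None of these members passed the test; the causes were not tested.

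At 4 livers per group, counts set the precision less than the spread between livers.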

Other observations

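Some livers held most of the extremes of their group over the 39 genes. The same ranks over all genes were not counted, so they are not shown to be particular to these members. Chow control 3 was the highest of its group for 26 members and chow control 1 the lowest for 21. Among the high-fat knockouts, number 3 was the highest for 27 members and number 1 the lowest for 23. High-fat control 3, the liver low in Malat1, was the highest of its group for 18 members and the lowest for 9, among them C6, C8a and C3, so its members did not all lie to one side.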
